A study of Mus musculus with 32 samples.

Results

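The 10 genes described here belong to the mammalian circadian clock: Arntl (also called Bmal1), Clock, Per1, Per2, Per3, Cry1, Cry2, Nr1d1, Nr1d2 and Dbp. They were taken by gene symbol from a deposited RNA-sequencing table of 20560 genes, and all 10 were found and tested. The samples were 3T3-L1 cells, a line of mouse fat cell precursors that a hormone mix drives to store lipid and become adipocyte-like. Zbtb9, which encodes a zinc finger protein with a BTB domain, was knocked down with 2 short hairpin RNAs, called shRNA 1 and shRNA 2, and a scramble hairpin (shCtrl) served as the control. Each hairpin had 2 libraries and the control had 4 at each of days 0, 3, 7 and 11 of differentiation, 32 libraries in all. Cells at day 0 were confluent and had received no inducer. From day 0 the medium of all arms held dexamethasone, 3-isobutyl-1-methylxanthine and insulin, from day 3 insulin alone, and from day 7 none of these additions. The hour of harvest, and whether cells of days 3 and 7 were taken before or after the change of medium, are not given in the sources used here. The titles call the replicates biological, but how the cultures were kept apart is not given, so p-values measure the spread between these libraries.

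In the clock, the proteins of Arntl and Clock pair and switch on genes that carry an E-box in their control regions. Among these are the Per and Cry genes, whose proteins enter the nucleus and shut their own activators down, closing a loop of about a day. The nuclear receptors encoded by Nr1d1 and Nr1d2, known as REV-ERB alpha and beta, repress Arntl through ROR elements, and Dbp encodes a leucine zipper protein that drives output genes through D-boxes. Cultured cells keep this rhythm, but each cell drifts on its own unless a pulse of serum, glucocorticoid or cyclic AMP sets all of them to the same phase. Per1 is a known early target of the glucocorticoid receptor and of cyclic AMP signalling, and REV-ERB alpha is known in 3T3-L1 cells as a gene that rises with fat cell formation.

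These control elements can be read in the promoters of some members. RefSeq start sites in GRCm38.p6 were found for 9 of the 10 genes (13 start sites), and the 250 bases before each start were searched on both strands for an E-box (CACGTG), a D-box (TTATGTAA), the core of a ROR element (TAGGTCA) and a cyclic AMP response element (TGACGTCA). Over 32851 promoter windows of that length, these letters were present in 6.02%, 0.819%, 2.23% and 1.55%. Matches were found at 3 member start sites, shown here 5′ to 3′ on the gene's strand with the matched motif in capitals, because they are the members whose windows hold the letters that the loop is known to use. The Per1 window lies at chr11:69098699-69098948 (plus strand) with an E-box 166 to 161 bases before the start. The Per3 window lies at chr4:151044666-151044915 (minus strand) with D-boxes at 205 to 198 and 158 to 151 bases before the start. The Cry1 window lies at chr10:85185055-85185304 (minus strand) with an E-box 60 to 55 bases before the start.
Per1: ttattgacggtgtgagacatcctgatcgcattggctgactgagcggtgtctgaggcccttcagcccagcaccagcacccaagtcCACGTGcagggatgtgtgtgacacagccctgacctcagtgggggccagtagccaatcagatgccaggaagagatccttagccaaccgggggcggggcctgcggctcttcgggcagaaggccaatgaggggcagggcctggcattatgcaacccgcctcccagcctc
Per3: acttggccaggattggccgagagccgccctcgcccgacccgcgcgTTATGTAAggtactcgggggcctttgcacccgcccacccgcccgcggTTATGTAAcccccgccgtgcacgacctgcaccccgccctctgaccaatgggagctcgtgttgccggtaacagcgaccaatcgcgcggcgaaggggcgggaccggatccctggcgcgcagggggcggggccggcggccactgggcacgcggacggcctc
Cry1: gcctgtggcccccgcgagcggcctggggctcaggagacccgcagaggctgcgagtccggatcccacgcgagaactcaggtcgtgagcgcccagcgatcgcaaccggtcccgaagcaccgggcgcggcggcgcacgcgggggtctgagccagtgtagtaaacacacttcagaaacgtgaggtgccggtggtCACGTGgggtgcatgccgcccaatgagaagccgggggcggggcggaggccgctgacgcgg
A match is a description of the letters, and the other windows hold none of the 4 motifs within these 250 bases.

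Reads rebuilt from the table gave 22280321 to 31073716 reads in genes per library. At day 11 the arms did not overlap in depth, with 26486034 to 31073716 reads in control and 22839423 to 25511818 in knockdown libraries. Levels are given as normalised reads, a gene's reads over the size factor of its library, and changes as log2 differences of the deposited values, which draw genes with few reads to their mean and so understate their changes. A gene is called where limma, fitted over all genes tested, gave a Benjamini-Hochberg adjusted p under 0.05. Zbtb9, the targeted gene, had few reads: 14.8, 17.2, 22.3 and 12.7 normalised reads in the 4 control libraries at day 7, against 6.1 and 9.3 with shRNA 1 and 8.4 and 4.9 with shRNA 2. The call at day 7 (log2 change -0.35, SE 0.12, adjusted p = 0.0288) was lost without shRNA 1 replicate 1, shRNA 2 replicate 2, or control replicate 2 or 3 (adjusted p from 0.0556 to 0.0789). Zbtb9 was not called at days 0 and 11 (-0.21 and -0.28, adjusted p 0.271 and 0.173) and did not reach the filter at day 3. At day 3 it had 0.0 and 7.4 normalised reads with shRNA 1 and 9.0 and 4.4 with shRNA 2, against 12.6, 6.3, 12.6 and 9.6 in control. There shRNA 1 replicate 2 and shRNA 2 replicate 1 lay within the controls. At day 11 the library labelled shRNA 1 replicate 2 had 19.3 reads and lay within the controls (17.9, 12.1, 20.0 and 12.1), and without it Zbtb9 was called (-0.42, adjusted p = 0.0323). Of its exon bases, 84.4% are shared with another gene on the same strand.

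Most fat cell markers were called higher in knockdown cells at days 3, 7 and 11. Of 10 adipocyte markers, 1, 10, 10 and 9 were called higher at days 0, 3, 7 and 11, beside 0.817%, 14.6%, 24.9% and 16.8% of all genes tested. Their summed level ran from 49849 to 54328 normalised reads in control and from 136843 to 206452 in knockdown libraries at day 7, and from 57088 to 67325 and 118285 to 143676 at day 11. At day 3 the ranges were 26465 to 31726 and 44324 to 59752, and at day 0 19722 to 20319 and 21961 to 23559, with Cfd at 0 in both arms at day 0. Of 6 fibroblast markers, 1 was lower before induction, 1 lower and 1 higher on day 3, 5 lower on day 7 and 4 lower on day 11. Over all genes tested, 2.44%, 12.1%, 22.6% and 16.2% were called lower on these days. All 6 fibroblast markers were tested on each day. Their sums at days 0, 3, 7 and 11 were 362306 to 377966, 141042 to 158678, 254727 to 279393 and 302321 to 347366 in control. In knockdown they were 297867 to 341556, 135485 to 177112, 200089 to 231638 and 231455 to 320646. The arms overlapped at days 3 and 11 and not at days 0 and 7. In control cells the fibroblast markers also moved against day 0, with 5 lower and 1 higher at days 3 and 7 (medians -1.69 and -0.52) and 3 lower at day 11 (-0.14). Macrophage markers (Adgre1 was not used) summed to 46.7 to 80.6 normalised reads in control and 89.3 to 150 in knockdown at day 7, and to 166 to 278 and 265 to 619 at day 11, where the arms overlapped. Of the 2 that were tested, Cd68 was called higher on both days (0.87 and 0.86, adjusted p 0.000189 and 0.0284) and Csf1r on neither. Endothelial markers summed to at most 48.7 and muscle markers to at most 3.04. The part of these markers in the clock gene results was not tested. In bulk RNA, a different share of cells of a type and a different amount of RNA per cell cannot be told apart.

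In control cells most clock genes stood apart from day 0 on each later day, in different directions and with different peaks. By limma, 10 of 10 changed at day 3 against day 0, 7 higher and 3 lower, beside 76.6% of all genes (38.3% higher and 38.2% lower). At day 7 it was also 10 of 10, 6 higher and 4 lower, beside 69.1% of all genes (33.3% higher and 35.8% lower), and at day 11 9 of 10, 8 higher and 1 lower, beside 64.6% (33.0% higher and 31.6% lower). With so many genes called, the number of clock genes called stands little above that background, and sizes and directions are given instead. With libraries rescaled to equal totals, the day 3 median over all genes was -0.12 in place of 0.00 and 38.6% of calls were higher in place of 50.1%, and all 10 clock genes kept their call and direction there.

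**Figure D1:**
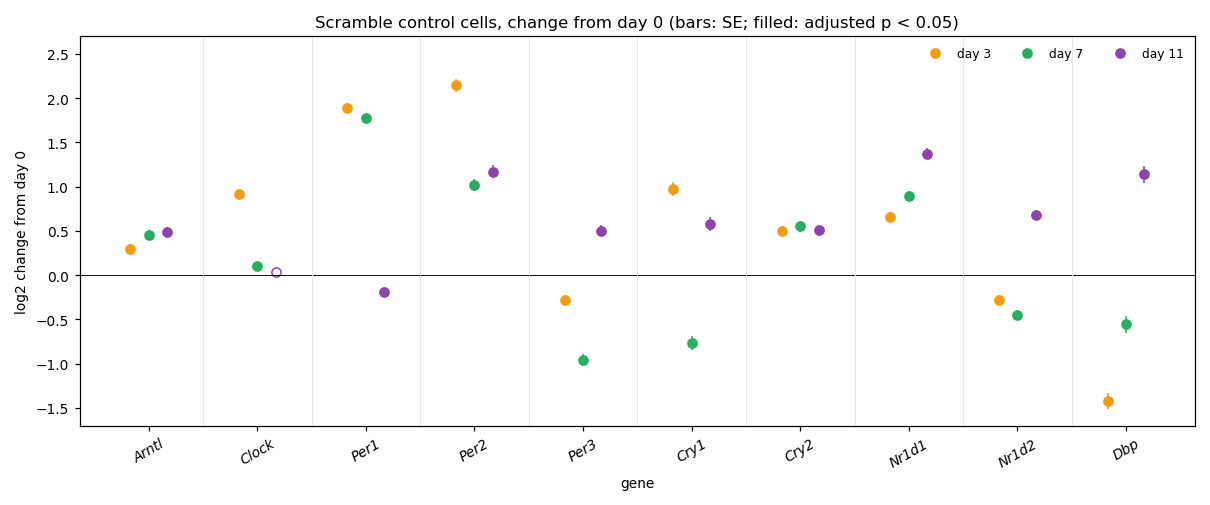
Log2 change from day 0 in scramble control cells (vertical axis) for each of the 10 clock genes (horizontal axis) at days 3, 7 and 11, with bars for the SE of the fit (4 libraries a day) and filled points for an adjusted p under 0.05. Per1 and Per2 stand highest at day 3, at 1.89 and 2.14, and Dbp goes from -1.42 at day 3 to 1.14 at day 11.

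The period genes, which encode repressors of the loop, gave the largest early rises. Per1 (chromosome 11, 69095217 to 69109960, plus strand, GRCm38) had 961, 1052, 1012 and 999.6 normalised reads in the 4 control libraries at day 0 and 4049.9, 4020.5, 3798 and 3894 at day 3 (log2 change 1.89, SE 0.049, adjusted p = 3.71e-27). It had 3593, 3784, 3776 and 3316 at day 7 and 856, 874, 802 and 988 at day 11. Per1 was thus high at days 3 and 7. It was below its day 0 level at day 11 (log2 change -0.19, adjusted p = 0.00134), with a log2 change of -1.96 from day 7 to day 11 (adjusted p = 1.63e-26). Per2 (chromosome 1, 91415982 to 91459324, minus strand) had 259, 302, 219.6 and 251 reads at day 0 and 1343, 1203, 1273 and 1243 at day 3 (log2 change 2.14, SE 0.071, adjusted p = 2.84e-24). Its level fell from day 3 to day 7, to 518 to 616 reads, and remained above day 0 at day 11 (log2 change 1.17, adjusted p = 2.8e-16). Per3 (chromosome 4, 151003652 to 151044665, minus strand), the member of the family that the loop can run without, took the other course. It had 646, 638, 589 and 646 reads before induction, 336, 317, 287 and 285 on day 7 and 934, 844, 927 and 954 on day 11. Its log2 changes from day 0 were -0.29, -0.96 and 0.50 at days 3, 7 and 11, so that Per3 was lowest at day 7 while Per1 was still high.

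The cryptochrome genes, partners of the period proteins, differed from each other. Cry1 (chromosome 10, 85131700 to 85185064, minus strand) had 387, 304, 366 and 346 reads at day 0 and rose to 634, 745, 802 and 725 at day 3. It then had 184, 199.8, 219.5 and 173 reads at day 7, and 514, 574, 497 and 574 by day 11. No library of day 3 overlapped any of day 7, and the change between those days was -1.73 (adjusted p = 8.69e-20). Cry2 (chromosome 2, 92403646 to 92434043, minus strand) moved up once and stayed there, with 562 to 649 reads at day 0 and 799 to 919, 835 to 1000.0 and 786 to 945 at days 3, 7 and 11. Its changes from day 0 were 0.50, 0.55 and 0.50 (adjusted p from 1.33e-09 to 1.09e-08), and neither later step was called.

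Of the activators, Arntl (chromosome 7, 113207465 to 113314126, plus strand) was above day 0 at each later day, with 599.8 ± 24.1 reads at day 0 (SD, n = 4) and then 748 ± 42.6, 842 ± 57.4 and 857 ± 47.1 on days 3, 7 and 11. Its log2 changes from day 0 were 0.30, 0.46 and 0.48. Clock (chromosome 5, 76209868 to 76304792, minus strand) rose at day 3, from 1769.7, 1611, 1758 and 1756 reads at day 0 to 3362, 3459, 3200.5 and 3368 at day 3 (log2 change 0.92, SE 0.042, adjusted p = 3.96e-20). At day 7 its difference from day 0 was 0.10 (adjusted p = 0.028), a call that did not hold without control replicate 2 of day 0 (0.07, adjusted p = 0.14), or without either control replicate 1 or 2 of day 7 (adjusted p 0.0869 and 0.0606) and on rescaling to equal totals (0.03, adjusted p = 0.523). At day 11 Clock was not called (0.04, adjusted p = 0.429).

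The nuclear receptor genes also went apart. Nr1d1 (chromosome 11, 98767932 to 98775333, minus strand) had 591, 683, 651 and 703 reads before induction and 1180.3, 1054, 1039 and 979 on day 3. It had 1254, 1245, 1367 and 1173 on day 7 and 1843, 1622, 1806 and 1869.6 on day 11, and the libraries of day 11 lay above all of day 0. Its changes from day 0 were 0.66, 0.89 and 1.37 at days 3, 7 and 11. Nr1d2 (chromosome 14, 18204054 to 18239127, minus strand) was below day 0 at days 3 and 7 (-0.29 and -0.45) and above it at day 11 (0.68), where its 4 libraries had 1584, 1433, 1661 and 1432 reads against 702, 664, 672 and 641 at day 7. Dbp (chromosome 7, 45705088 to 45710203, plus strand), the output gene, had the widest range of the 10 in control cells, with a span of 2.56 on the log2 scale between its lowest and highest day means. It had 695, 651, 746 and 601 reads before induction and 268, 240.1, 233 and 185 on day 3. On day 7 it had 388, 476, 505 and 414, and on day 11 1767, 1565, 1383 and 1496. No day overlapped another in Dbp, and the change from day 7 to day 11 was 1.69 (adjusted p = 9.01e-14). From day 7 to day 11, Dbp, Per3, Cry1, Nr1d2 and Nr1d1 rose by 1.69, 1.46, 1.34, 1.12 and 0.48, and Per1 alone was called lower. That is 6 of 10 called, beside 55.0% of all genes, and from day 3 to day 7 it was 9 of 10, 3 higher and 6 lower, beside 74.2%. Of those 9, 3 were lost without 1 library: Arntl without control replicate 1 of day 3 or 3 of day 7 (adjusted p 0.0669 and 0.0531), Nr1d2 without control replicate 3 of day 3 (adjusted p = 0.0644) and Per1 (-0.12) without control replicate 1 or 2 of day 3 or 1 or 4 of day 7 (adjusted p from 0.0529 to 0.156). With all 32 libraries fitted together, Per1, Nr1d1 and Nr1d2 were not called for that step (adjusted p 0.0892, 0.289 and 0.344), and neither were Nr1d2 at day 3 against day 0 (adjusted p = 0.085) and Clock at day 7 against day 0 (adjusted p = 0.23). Rescaling also ended the calls, from day 3 to day 7, of Per1 (-0.07, adjusted p = 0.223) and Nr1d2 (-0.10, adjusted p = 0.102). From day 7 to day 11 Per2 (0.15, adjusted p = 0.0675) was called without control replicate 2 or 3 of day 0, 2 of day 7 or 3 of day 11 (adjusted p from 0.0217 to 0.0473).

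Some annotated exons are shared with genes on the opposite strand: 8.55% of the exon bases of Nr1d1 with Thra, 18% of those of Dbp with Sphk2, 4.67% for Cry2 and 0.439% for Arntl. Whether counting used strand is not given in the sources used here, so those reads could not be divided.

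The order of the levels, compared between genes per kilobase of annotated exon, changed with the day in control cells. At day 0 Dbp and Nr1d1 led, with 225 and 214 normalised reads per kilobase and overlapping ranges, and Per2 was lowest with 44.0. At day 3 Per1 led with 699.8, followed by Nr1d1 with 346 and Clock with 244, and Per3 was lowest with 53.0. At day 7 Per1 (642) and Nr1d1 (409) led, Per3 (31.9) was lowest, and each gene from Dbp through Cry2, Clock, Nr1d2 and Arntl to Per2 overlapped the next in the order. At day 11 Nr1d1 (580.1) and Dbp (519) led with overlapping ranges, and Arntl, Per2 and Per3, the lowest, each overlapped the next.

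Genes known to respond to the inducers moved in the same control libraries. All 6 of 6 listed glucocorticoid-responsive genes were called at day 3, where 76.6% of all genes were, 5 higher and 1 lower, with a median log2 change of 3.14 beside 0.00 for all genes tested. Zbtb16, a zinc finger gene induced by glucocorticoids, had 4.69 to 16.2 reads at day 0 and 1848 to 2003 at day 3, and its log2 value changed by 5.82, 6.45 and 3.69 at days 3, 7 and 11. Fkbp5, a chaperone of the glucocorticoid receptor, changed by 4.25, 4.21 and 1.40, so that both were highest at days 3 and 7, as Per1 was. The 6 of 6 genes listed for cyclic AMP and serum were also called at day 3, 5 higher and 1 lower, beside the same 76.6% of all genes and with a median of 0.82. The orphan receptor genes Nr4a1 and Nr4a3 rose by 4.50 and 1.53 at day 3, Nr4a3 from 1.01 to 3.37 reads in the libraries of day 0 to 39.3 to 61.0 in those of day 3. Nr4a1 was below day 0 at days 7 and 11 (-0.76 and -0.73), as was Fos, an immediate early gene (-1.74 and -1.55). In knockdown against control at day 11, 5 of 6 cyclic AMP and serum genes were called, all higher (median 0.56), and 5 of 6 glucocorticoid genes, 3 higher and 2 lower (median 0.29), beside 33.0% of all genes and a median of -0.01. At days 0, 3 and 7, 0, 2 and 3 of the cyclic AMP and serum genes were called higher and 2, 1 and 1 lower. Of the glucocorticoid genes 0, 1 and 3 were called higher and 1, 0 and 2 lower. Over all genes 3.25%, 26.7% and 47.6% were called on those days. At day 11 Dusp1, a phosphatase gene of the glucocorticoid list, was higher by 1.16, while 2 others of that list were called lower. Dusp1 was not among the genes picked by the size of their change in control cells. The part of these lists in the differences of the clock genes was not tested.

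**Figure D2:**
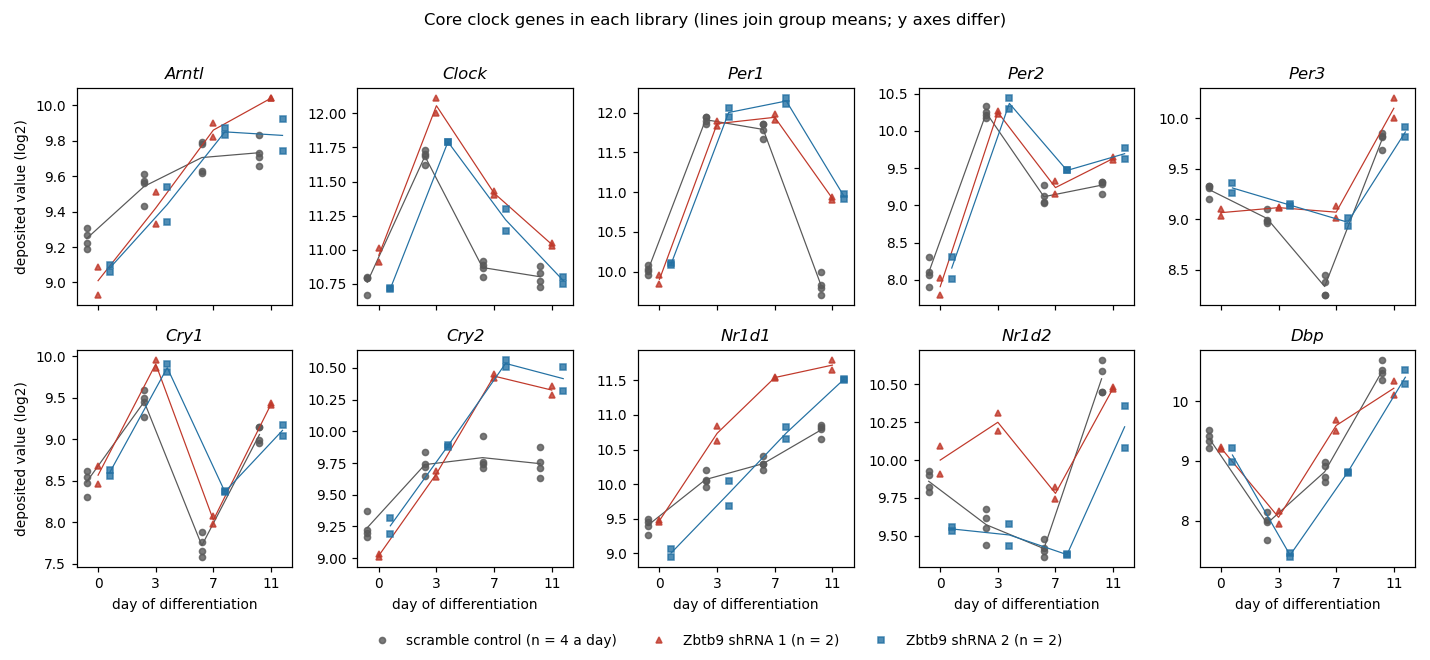
Deposited log2 value (vertical axis, scaled per panel) of each clock gene in every library at days 0, 3, 7 and 11 (horizontal axis), with circles for control, triangles for shRNA 1 and squares for shRNA 2, and lines through group means. Control Per1 drops between days 7 and 11 while both hairpins remain about 1 log2 unit higher at day 11, and the 2 hairpins stand apart in Nr1d1, Nr1d2 and Dbp.

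Zbtb9 knockdown was then compared with control on each day. Before induction, at day 0, 0 of 10 clock genes were called by limma, beside 3.25% of all genes (0.817% higher and 2.44% lower). At an unadjusted p under 0.05 there were 2, Arntl and Dbp, and voom on the rebuilt reads also called 0. At day 3 it was 2 of 10, both higher (Cry1 and Clock), beside 26.7% of all genes (14.6% higher and 12.1% lower). At day 7 it was 7 of 10, all higher, beside 47.6% of all genes (24.9% higher and 22.6% lower), and at day 11 4 of 10, all higher (Per1, Nr1d1, Cry2 and Per2), beside 33.0% (16.8% higher and 16.2% lower). Without the library labelled shRNA 1 replicate 2 of day 11, whose Zbtb9 level lay within the controls, the differences of these 4 genes were 1.12, 0.83, 0.65 and 0.40 and all remained called. The median log2 change of the 10 genes was -0.09, 0.09, 0.42 and 0.21 at days 0, 3, 7 and 11, beside -0.01, 0.00, 0.01 and -0.01 for all genes tested. The count at day 11 was 8 without shRNA 2 replicate 1 and 9 with the hairpins as separate groups. Over all genes at day 11, 4382 were called as fitted and 3200 to 4668 without 1 library. The number over all genes with separate groups is not given here for day 11, and at day 3 it was 5311 in place of 3506. As fitted, the counts at days 3 and 11 are near the background, and at day 7 all 7 calls had 1 direction where calls over all genes were divided almost evenly. On rescaling to equal totals, 43.3% of the calls of all genes at day 0 were higher in place of 25.1%, and the number of genes called at day 0, 430 of 13216, was between 111 and 157 without any 1 of the control replicates and 250 without shRNA 1 replicate 2.

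**Figure D3:**
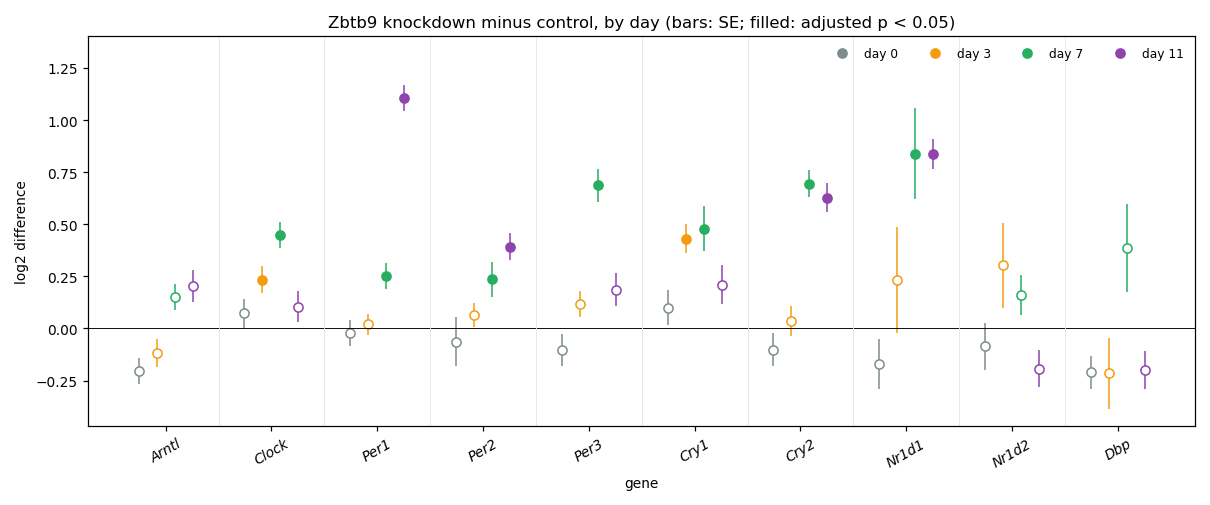
Log2 difference of knockdown minus control (vertical axis) for each clock gene (horizontal axis) at each day, with bars for the SE of the fit (4 against 4 libraries) and filled points for an adjusted p under 0.05. Per1 at day 11 stands highest, at 1.10, and Nr1d1 stands at 0.84 at both days 7 and 11 with a wider bar at day 7.

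Per1 held the largest difference. At day 11 the 4 control libraries had 856, 874, 802 and 988 normalised reads, the shRNA 1 libraries 1965 and 1903 and the shRNA 2 libraries 1934 and 2020.2 (log2 change 1.10, SE 0.064, adjusted p = 5.24e-07). All 4 knockdown libraries lay above all 4 controls, and the means were 1956 ± 49.9 and 879.9 ± 78.3 (SD, n = 4). At day 7 the gap was small but without overlap, with 3919 and 4137 reads for shRNA 1 and 4530.4 and 4783 for shRNA 2 against 3593, 3784, 3776 and 3316 in control (log2 change 0.25, SE 0.064, adjusted p = 0.00431). At days 0 and 3 Per1 was not called (-0.02 and 0.02). The knockdown difference in Per1 was larger at day 11 than at day 7 by 0.85 (adjusted p = 8.18e-08).

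Per2 was higher in knockdown at day 11, with 791 and 821 reads with shRNA 1 and 799.5 and 895 with shRNA 2 against 639, 625, 569 and 639.9 in control (log2 change 0.39, SE 0.064, adjusted p = 0.000765), and no libraries overlapped. Its call at day 7 (log2 change 0.24, SE 0.084, adjusted p = 0.0302) was not firm. It was lost in 5 of 8 fits that left out 1 library (shRNA 2 replicate 1 or 2, or control replicate 1, 3 or 4, adjusted p from 0.0558 to 0.0871), with no filter on low values (adjusted p = 0.0566) and on rescaling to equal totals (adjusted p = 0.0857). Per3 was called at day 7, with 509 and 556 reads with shRNA 1 and 480.4 and 511 with shRNA 2 against 336, 317, 287 and 285 in control (log2 change 0.69, SE 0.079, adjusted p = 3.84e-06) and no overlap. The knockdown difference in Per3 was larger at day 7 than at day 3 by 0.57 (adjusted p = 0.000101) and smaller at day 11 than at day 7 (change -0.50, adjusted p = 0.0011). At day 11 Per3 was not called (0.19, adjusted p = 0.0934), though it was with all 32 libraries fitted together (adjusted p = 0.039), with the hairpins as separate groups (adjusted p = 0.0168) and without shRNA 2 replicate 1 (0.24, adjusted p = 0.0311).

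Cry1 was the clock gene with the largest difference at day 3. Cry1 had 1050.5 and 979 reads with shRNA 1 and 1014 and 946 with shRNA 2, and in controls 634, 745, 802 and 725 (log2 change 0.43, SE 0.069, adjusted p = 0.000419). At day 7 all 4 knockdown libraries were again above the controls, with 238 and 255 with shRNA 1 and 318 and 322 with shRNA 2 against 184, 199.8, 219.5 and 173 (log2 change 0.48, SE 0.11, adjusted p = 0.00186). At day 11 Cry1 did not pass (0.21, adjusted p = 0.113), but it did with the hairpins as separate groups (adjusted p = 0.0159) and on leaving out shRNA 2 replicate 1 (0.28, adjusted p = 0.0244). Cry2 came later. It was not called at days 0 and 3 (-0.10 and 0.04), and at day 7 it had 1399 and 1435 reads with shRNA 1 and 1499 and 1561 with shRNA 2 against 864, 1000.0, 856 and 835 in control (log2 change 0.69, SE 0.065, adjusted p = 4.36e-07). At day 11 it had 1349 and 1278 with shRNA 1 and 1304 and 1502 with shRNA 2 against 869, 786, 834 and 944 (log2 change 0.63, SE 0.070, adjusted p = 5.16e-05), and on neither day did the arms overlap. The knockdown difference in Cry2 was larger at day 7 than at day 3 by 0.66 (adjusted p = 1.82e-05) and did not pass for a change after that (-0.07, adjusted p = 0.739).

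Nr1d1 was the other gene with a large difference late in differentiation. At day 11 it had 3707 and 3338 reads with shRNA 1, 3013 and 3039 with shRNA 2 and 1843, 1622, 1806 and 1869.6 in control (log2 change 0.84, SE 0.072, adjusted p = 7.45e-06). At day 7 it had 3056 and 3101 reads with shRNA 1, 1626 and 1848 with shRNA 2 and 1254, 1245, 1367 and 1173 in control (log2 change 0.84, SE 0.22, adjusted p = 0.0153). On both days the knockdown libraries lay above all controls, but at day 7 the hairpins were far from each other. Nr1d2, its close relative, was not called on any day, with differences of -0.09, 0.30, 0.16 and -0.19 and adjusted p of 0.714, 0.326, 0.179 and 0.115. It was called at day 7 without shRNA 2 replicate 1 (0.23, adjusted p = 0.0471), and with the hairpins as separate groups at days 3, 7 and 11 (adjusted p 7.26e-05, 0.0218 and 0.0195). With separate groups Nr1d1 was also called at days 0 and 3 (-0.17 and 0.23, adjusted p 0.0297 and 0.0155). Those fits leave the difference between hairpins out of the residual spread, and the calls average hairpins that stood apart. Nr1d1 was at 0.07 with shRNA 1 and -0.40 with shRNA 2 at day 0, and at 0.67 and -0.20 at day 3.

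Of the activators, Clock was higher in knockdown at day 7, with 2721 and 2782 reads with shRNA 1 and 2264 and 2528 with shRNA 2 against 1922, 1886, 1762 and 1861 in control (log2 change 0.45, SE 0.063, adjusted p = 2.74e-05), and no overlap. Its call at day 3 (log2 change 0.23, SE 0.066, adjusted p = 0.0174) was lost without control replicate 3 (0.21, adjusted p = 0.059), with no filter on low values (adjusted p = 0.0573) and without trend and robust moderation (adjusted p = 0.058), although the 4 knockdown libraries (4199.8 and 4524 with shRNA 1 and 3604 and 3598 with shRNA 2) stood above all controls (3362, 3459, 3200.5 and 3368). At day 11 Clock was not called (0.10). Arntl was called on no day, with differences of -0.20, -0.12, 0.15 and 0.20 (adjusted p 0.0972, 0.225, 0.0588 and 0.0581). All 4 knockdown libraries of Arntl lay below the controls at day 0 (474 and 531 with shRNA 1 and 522 and 536 with shRNA 2 against 588, 573, 628 and 610.1 reads) and all 4 above them at day 7. Arntl was called at day 7 without control replicate 3 (0.18, adjusted p = 0.0429) and at day 11 without shRNA 2 replicate 1 (0.27, adjusted p = 0.00815). It was also called with the hairpins as separate groups at days 0, 7 and 11 (adjusted p 0.00875, 0.0308 and 0.00897), and at day 11 with all 32 libraries fitted together (0.0131). Dbp, which swung most over the days, was called on no day (-0.21, -0.22, 0.39 and -0.20, adjusted p 0.174, 0.392, 0.17 and 0.12). It was called at day 11 without shRNA 2 replicate 1 (-0.27, adjusted p = 0.0289), and with the hairpins as separate groups at days 0, 7 and 11 (adjusted p 0.0138, 0.000126 and 0.0483).

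The 2 hairpins differed from each other in several clock genes. Tested directly, shRNA 2 against shRNA 1, 6 of 10 clock genes differed before induction, beside 35.0% of all genes. On day 3 it was 5 of 10 (19.6% of all genes), on day 7 also 5 (16.4%) and on day 11 it was 3 (22.0%). Fibroblast markers differed between the hairpins too, with 6, 6, 3 and 4 of 6 called at days 0, 3, 7 and 11 (medians 0.23, 0.45, 0.17 and 0.39). Of the 10 adipocyte markers 2, 3, 7 and 3 were called, at day 7 6 lower and 1 higher with shRNA 2 (median -0.32). The part of these markers in the clock gene differences was not tested. With 2 libraries each, these fits estimate the spread from the hairpin and control libraries of the day together. On rescaling to equal totals, 61.9% of the calls of all genes at day 7 were higher with shRNA 2 in place of 45.8%.

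**Figure D4:**
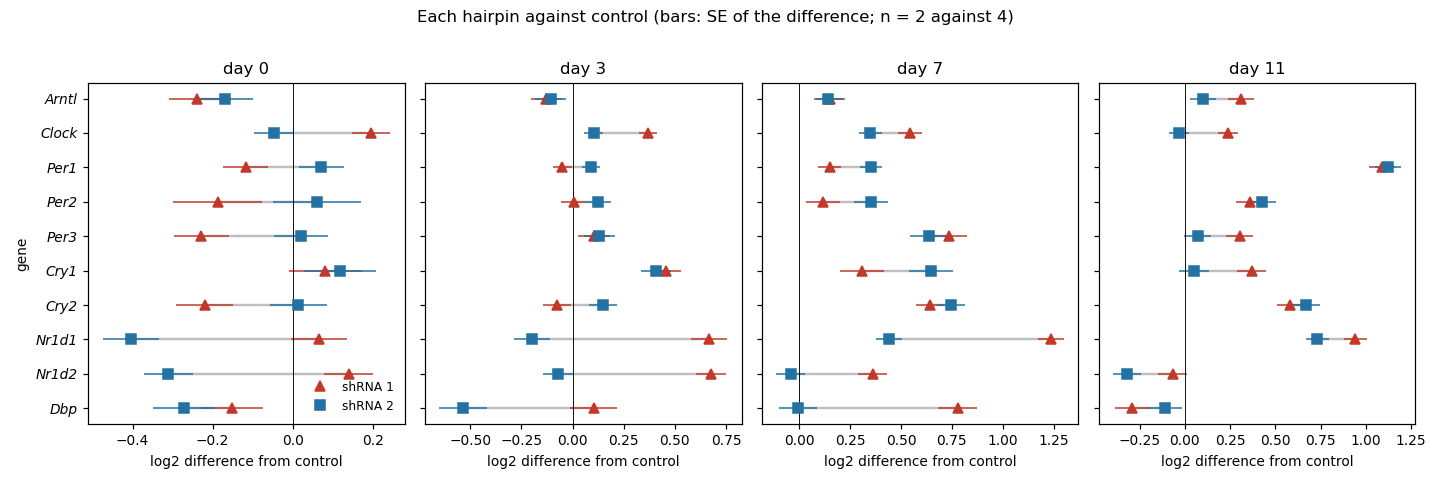
Log2 difference from control (horizontal axis) of shRNA 1 (triangles) and shRNA 2 (squares) for each clock gene (vertical axis), 1 panel a day, with bars for the SE of the difference (2 against 4 libraries) and a grey line joining the hairpins. Nr1d1, Nr1d2 and Dbp are far apart at days 3 and 7, while Per1 at day 11 is nearly equal for both, at 1.09 and 1.12.

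Nr1d1 was lower with shRNA 2 than with shRNA 1 on each day, Nr1d2 at days 0, 3 and 7, and Dbp at days 3 and 7. Nr1d1 at day 3 had 1596 and 1857 reads with shRNA 1, 807 and 1041 with shRNA 2 and 1180.3, 1054, 1039 and 979 in control, so that shRNA 1 lay above the controls (0.67, SE 0.089) and of shRNA 2 1 library lay below and 1 within them (-0.20, SE 0.089). The difference between the hairpins in Nr1d1 was -0.47, -0.87, -0.79 and -0.21 at days 0, 3, 7 and 11 (adjusted p 3.52e-05, 6.35e-06, 3.4e-08 and 0.0484), and the call at day 11 was lost in 6 of 8 fits without 1 library (adjusted p from 0.0541 to 0.266; shRNA 1 replicate 1, shRNA 2 replicate 1 or 2, control replicate 1, 3 or 4). Nr1d2 at day 3 had 1187 and 1289.8 reads with shRNA 1 against 756 and 675 with shRNA 2 and 742, 778, 816 and 682 in control. Both shRNA 1 libraries lay above all controls there, and the hairpins differed by -0.45, -0.75 and -0.40 at days 0, 3 and 7 (adjusted p 8.69e-06, 1.18e-08 and 0.00116), and by -0.25 at day 11, which did not pass (adjusted p = 0.0551). Dbp at day 3 had 269 and 229.6 reads with shRNA 1, 147 and 154 with shRNA 2 and 268, 240.1, 233 and 185 in control. At day 7 it had 850.4 and 734 with shRNA 1, 437 and 446 with shRNA 2 and 388, 476, 505 and 414 in control. In Dbp shRNA 2 was thus below the controls at day 3 and within them at day 7, and shRNA 1 was close to the controls at day 3 and above them at day 7. The hairpins differed in Dbp by -0.64 and -0.78 on days 3 and 7 (adjusted p 0.00057 and 1.38e-05).

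Clock was also lower with shRNA 2 on each day, with differences of -0.24, -0.27, -0.19 and -0.27 (adjusted p 0.00099, 0.000199, 0.0417 and 0.00702), with the call at day 7 lost without shRNA 1 replicate 1 or 2 or shRNA 2 replicate 1 (adjusted p from 0.117 to 0.368). The period genes and Cry2 went the other way where they were called: Per1 at days 0 and 7 (0.19 and 0.20), Per3 at day 0 (0.25) and Cry2 at days 0 and 3 (0.23 and 0.22). Each of these calls was lost on leaving out some of the knockdown libraries: Per1 at day 0 without shRNA 1 replicate 1 or either replicate of shRNA 2 (adjusted p 0.0709 to 0.223), Per1 at day 7 without either replicate of shRNA 1 or replicate 2 of shRNA 2 (0.0699 to 0.214), Per3 without replicate 2 of either hairpin (0.102 and 0.146), Cry2 at day 0 without either replicate of shRNA 1 or replicate 2 of shRNA 2 (0.0875 to 0.239) and Cry2 at day 3 without any 1 of the 4 (0.0861 to 0.192). Cry1 at day 11 (-0.32) was lost without either replicate of shRNA 1 or replicate 1 of shRNA 2 (0.0526 to 0.156). Leaving out 1 library also added calls: Per1 at day 3 without shRNA 2 replicate 1 (0.20), Cry1 at day 7 without control replicate 3 (0.34), and at day 11 Nr1d2 without shRNA 2 replicate 1 (-0.39), Arntl without shRNA 2 replicate 2 (-0.30) and Per3 without shRNA 1 replicate 2 (-0.33). With no filter on low values, and without trend and robust moderation, the calls between hairpins of Cry2 at days 0 and 3, Clock and Per1 at day 7 and Nr1d1 at day 11 were also lost (adjusted p from 0.0536 to 0.153). Counting differences from control called with each hairpin and not called between the hairpins, there were 7: Per1 at day 11, Per2 at day 11 (0.36 and 0.43), Cry2 at day 7 (0.64 and 0.75), Cry2 at day 11 (0.58 and 0.67), Per3 at day 7 (0.73 and 0.64), Cry1 at day 3 (0.45 and 0.41) and Cry1 at day 7 (0.31 and 0.65). The differences between hairpins were 0.03, 0.07, 0.10, 0.09, -0.09, -0.05 and 0.34 in the same order, with SE from 0.080 to 0.13, which does not show that the hairpins act alike. That of Cry1 at day 7 (adjusted p = 0.0654) was called on rescaling (0.0393) and with all 32 libraries fitted together (0.0184). Calls were also lost under these settings. Over all comparisons of the clock genes, rescaling added 2 calls and ended 8, and the single fit added 5 and ended 7.

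The change of the knockdown difference between neighbouring days was tested directly. From day 0 to day 3, 0 of 10 passed by limma (6.57% of all genes), 2 had an unadjusted p under 0.05 and voom called 0. From day 3 to day 7 Arntl, Per3 and Cry2 passed (23.1% of all genes), and from day 7 to day 11 Clock, Per1 and Per3 (12.7%). The change in Arntl, 0.27 (adjusted p = 0.0346), was lost on rescaling (adjusted p = 0.0632) and in 9 of 32 fits without 1 library (adjusted p from 0.0521 to 0.0776). Those libraries were, of day 3, shRNA 1 replicate 1, shRNA 2 replicate 2 and control replicates 2, 3 and 4, and, of day 7, shRNA 1 replicate 2, shRNA 2 replicate 2 and control replicates 1 and 2. The change in Clock from day 7 to day 11, -0.34 (adjusted p = 0.0284), was lost in 7 of 32 (adjusted p from 0.0519 to 0.0761), without shRNA 1 replicate 1 or 2 or control replicate 3 of day 7, or shRNA 2 replicate 1 or 2 or control replicate 3 or 4 of day 11. Dbp, whose change was 0.60 from day 3 to day 7 and -0.59 from day 7 to day 11 and did not pass, was called on both steps without shRNA 2 replicate 1 of day 7 (0.74 and -0.72, adjusted p 0.0216 and 0.0376) or replicate 2 (0.73 and -0.71, adjusted p 0.0266 and 0.0454), and on the first also without shRNA 1 replicate 1 or control replicate 4 of day 3 (adjusted p 0.021 and 0.0422). Nr1d1 was called from day 3 to day 7 without shRNA 1 replicate 2 of day 3 (0.78) or shRNA 2 replicate 1 of day 7 (0.77), and Per1 in 5 of 32 fits (0.23 to 0.28; without shRNA 1 replicate 1 of day 0 or of day 7, shRNA 2 replicate 2 of day 3, control replicate 2 of day 7 or control replicate 4 of day 11). With the hairpins as separate groups, calls were added for Clock, Cry1, Nr1d1 and Nr1d2 from day 0 to day 3, for Clock, Per1, Nr1d1 and Dbp from day 3 to day 7, and for Nr1d2 and Dbp from day 7 to day 11 (adjusted p from 3.11e-06 to 0.05). On rescaling, 42.4% of the calls of all genes were higher in place of 56.2% for the change from day 0 to day 3, and 45.3% in place of 55.9% for that from day 3 to day 7.

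A list of 18 other clock genes, regulators and outputs around the core loop, was examined in the same fits, and 16 were tested (Npas2 and Rorb did not reach the filter). In control cells 15 of the 16 were called on day 3 (10 higher, 5 lower), then 13 on day 7 (7 and 6) and 10 on day 11 (7 and 3), beside 76.6%, 69.1% and 64.6% of all genes. Their median changes were 0.39, 0.01 and 0.12, beside 0.00, -0.01 and 0.01 for all genes. Nfil3, which encodes a repressor that competes with Dbp at D-boxes, had 428 ± 37.3 reads at day 0 and 4880.1 ± 97.5 at day 3 (SD, n = 4), with log2 changes from day 0 of 3.35, 2.17 and 1.3. It was thus highest on the day on which Dbp was lowest. Usp2, a deubiquitinase under clock control, rose by 2.08 at day 3 and 1.87 at day 7. Rora, which encodes an activator at ROR elements, rose by 1.06 at day 11. Bhlhe40, an E-box repressor also called Dec1, rose by 1.29 and 1.34 at days 7 and 11. Bhlhe41 (Dec2) changed by -1.57 at day 3 and 1.05 at day 7. At day 3 Fbxl21, which encodes an F-box protein that acts on cryptochromes, changed by -1.27, and at day 11 Timeless, a gene with a role in DNA replication, changed by -1.33.

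In knockdown cells more of the other clock genes, and also more of all genes, were called on day 7 than on the other days. Of the 16, limma called 0 before induction, where 2 had an unadjusted p under 0.05 and voom also called 0. It called 5 on day 3 (all higher), 12 on day 7 (11 higher, 1 lower) and 7 on day 11 (6 higher, 1 lower), beside 26.7%, 47.6% and 33.0% of all genes. The count at day 3 is near the share of all genes, and the count at day 11 is somewhat above it. The medians on the 4 days were -0.04, 0.06, 0.28 and 0.08, beside -0.01, 0.00, 0.01 and -0.01 for all genes. The knockdown values pool 2 libraries of each hairpin. Tested directly between the hairpins, 7, 3, 3 and 2 of the 16 were called at days 0, 3, 7 and 11. Over all genes the share called between hairpins was 35.0%, 19.6%, 16.4% and 22.0%. Bhlhe41 had the largest knockdown difference, 3062 ± 229 against 809 ± 118 reads at day 11 (SD, n = 4, log2 change 1.84, SE 0.091, adjusted p = 1.95e-07). Noct, which encodes a clock-controlled phosphatase known from fat tissue, had 952 ± 81.1 against 389.5 ± 19.9 reads at day 7 and 762 ± 121 against 244 ± 24.5 at day 11 (log2 changes 1.19 and 1.50). Ciart, a repressor of the Arntl and Clock pair, was higher by 0.66 at day 3 and 1.07 at day 11, and Rora by 0.75 at day 7. Bhlhe40 was higher by 0.78 at day 7 and 1.04 at day 11, and Noct by 0.31 at day 3. Fbxl21 was the 1 gene called lower at day 7 (log2 change -0.55, SE 0.12, adjusted p = 0.00102). The day 3 calls of Bhlhe41 (0.79) and Rora (0.33) were lost in 5 and 4 of 8 fits without 1 library (shRNA 1 replicate 1 and each control for Bhlhe41, shRNA 1 replicate 2 and control replicates 1, 3 and 4 for Rora, adjusted p up to 0.0805 and 0.0847). At day 3 voom did not call Bhlhe41 (adjusted p = 0.0588), and with no filter Rora was not called (adjusted p = 0.077). The count at day 3 was 2 without control replicate 1 or 4 and 3 without control replicate 3. At day 0, 1 was called without shRNA 2 replicate 2.

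**Figure D5:**
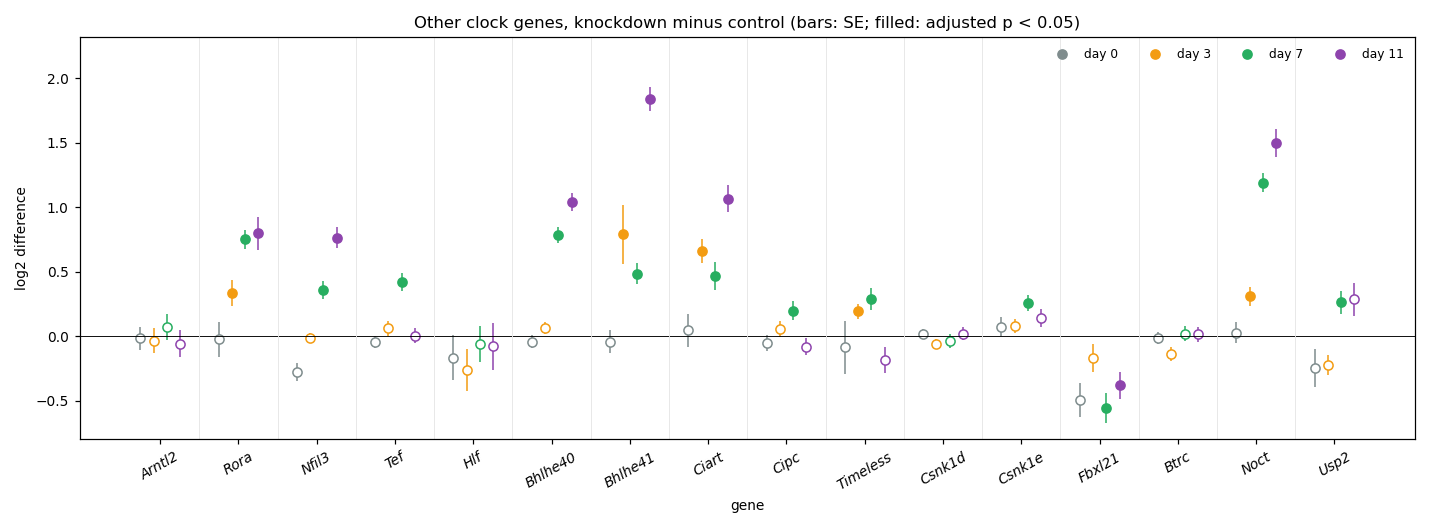
Log2 difference of knockdown minus control (vertical axis) for the 16 tested genes of the list of other clock genes (horizontal axis) at each day, with bars for the SE (4 against 4 libraries) and filled points for an adjusted p under 0.05. Bhlhe41, Noct and Ciart reach 1.84, 1.50 and 1.07 at day 11, while Arntl2, Hlf, Csnk1d and Btrc are filled on no day.

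The span of each clock gene over the days differed between the arms in both directions, as a description. Nr1d1 spanned 1.37 on the log2 scale between its lowest and highest day means in control and 2.38 in knockdown, and Cry2 0.55 and 1.35. Arntl spanned 0.48 and 0.89. Per3 spanned 1.46 in control and 0.96 in knockdown and Nr1d2 1.12 and 0.77, while Dbp (2.56 and 2.57) and Per1 (2.08 and 2.05) spanned nearly the same. The lowest day of Per1 was day 11 in control and day 0 in knockdown.

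Over the 12 group means (3 arms on 4 days), the genes most like Dbp among 12080 were Rab20 (Pearson's r 0.966), Ccdc57 (0.956) and Prcd (0.955), and those most like Arntl were Astn2 (0.980), Txnip (0.977) and Pfkl (0.976). Among the clock genes, the nearest to Dbp was Per3 (0.656) and the farthest Clock (-0.742), and the nearest to Arntl was Cry2 (0.917) and the farthest Cry1 (-0.024). These values describe group means that share days and medium, and no test was made of them.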

How the data were processed

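RNA sequencing of 32 libraries of 3T3-L1 cells was analysed from 1 table of 20560 genes. TopHat2 2.1.0, Bowtie2 2.2.6, SAMtools 1.3.1 and HTSeq 0.6.1 are named in the submitters' processing notes; the build, annotation, strand setting and transform are not given in the sources used here. The range of the deposited values was that of a log2 scale, and undoing a regularized log gave near-whole reads for most of them. The values were taken to be of that form. They were therefore used as they stand, with no pseudocount and no count model. Normalised reads were rebuilt from them: 95.9% of values, and 318 of 320 of the clock genes, came out within 0.1 of a whole read. Columns of no sample of the series numbered 0.

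Genes with 2 to the power of the value of at least 10 in at least 4 libraries of a fit were tested with limma 3.58.1 (R 4.3.3; two-sided, trend and robust moderation), with Benjamini-Hochberg adjustment over all genes tested and called at 0.05. Fits used the 8 libraries of a day (4 knockdown against 4 control; 3 groups for the hairpins), the 16 control libraries, or all 32 for the change of the knockdown difference between days. The method was tested on simulated data. Tables were handled with numpy 2.4.6, scipy 1.17.1 and pandas 2.3.3, and figures drawn with matplotlib 3.10.9. Positions and exon lengths came from GENCODE on GRCm38, matched by gene identifier for 20521 of 20560 genes, and promoters from RefSeq (GRCm38.p6).

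The members and lists were chosen with earlier results of these data known, and 2 genes of the list of other clock genes are not reported here. Named genes were the 10 clock genes and Zbtb9. To these were added the 4 called other clock genes with the largest change in each knockdown comparison and each control day against day 0. From the glucocorticoid list and the cyclic AMP and serum list, the 2 such genes per control day against day 0 were named. The 3 genes most like Dbp and Arntl were named as well. A few further values of these genes on other days are given. Dusp1 and single cell type markers were named outside this rule. Alternatives were other filters, scalings and moderation, a pseudocount of 1, 1 fit of all libraries, hairpins as separate groups, a replicate block, voom on rebuilt reads, and leaving out each library.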

Additional observations from a re-analysis of the deposited data

Results flagged for a closer look

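In the 4 control libraries of day 0, 1 library lay below the others, which were close together, in each of 2 genes. It was replicate 2 for Clock, with a log2 value of 10.67 against 10.79 to 10.80. For Per3 it was replicate 3, with 9.20 against 9.31 to 9.33. Each of the 10 clock genes was searched on each of the 4 days, and chance marks about 1 in 20 such groups in this way.

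The knockdown difference changed between days, by the test of the change itself, in 5 clock genes. From day 3 to day 7 it changed by 0.27 in Arntl, 0.57 in Per3 and 0.66 in Cry2 on the log2 scale. From day 7 to day 11 it changed by -0.34 in Clock, 0.85 in Per1 and -0.50 in Per3.

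The hairpins differed from each other (shRNA 2 minus shRNA 1, log2) on each day. At day 0 the differences were -0.24 in Clock, 0.19 in Per1, 0.25 in Per3, 0.23 in Cry2, -0.47 in Nr1d1 and -0.45 in Nr1d2. At day 3 they were -0.27 in Clock, 0.22 in Cry2, -0.87 in Nr1d1, -0.75 in Nr1d2 and -0.64 in Dbp. At day 7 they were -0.19 in Clock, 0.20 in Per1, -0.79 in Nr1d1, -0.40 in Nr1d2 and -0.78 in Dbp. At day 11 they were -0.27 in Clock, -0.32 in Cry1 and -0.21 in Nr1d1.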

How the results depend on the processing

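Of 1480 values of the clock genes under other settings, 1399 kept their side of the threshold and, where called, their direction, 41 lost and 40 gained a call; of 2400 without 1 library it was 2313, 59 and 28. None of these reversed as a called value. The cause was not tested.

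As fitted, knockdown comparisons called 430 genes at day 0, 3506 at day 3, and 892, 3137 and 1725 for the changes between neighbouring days. With the hairpins as separate groups these numbers were 3340, 5311, 2484, 4961 and 3540. Clock genes called were then 3 at day 0, 4 at day 3, 9 at day 11, and 4, 7 and 5 for those changes, and other clock genes 2 at day 0. Without trend and robust moderation, 261 genes were called at day 0, 1 clock gene at day 3, and between hairpins 1454 genes at day 3, 1035 at day 7 and 3 clock genes at day 7. With no filter, 1 clock gene was called at day 3, and between hairpins 1710 genes at day 3 and 3 clock genes at day 7. Other clock genes at day 0 were 2 in 1 fit of all libraries, and centring on the median gave 5 clock genes between hairpins at day 11.

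The replicate numbers did not pair the samples: same-numbered libraries of different arms had correlations from -0.001 to 0.209. With the replicate block, 0 genes were called at day 0, 845 at day 3, 4112 at day 7, 1652 at day 11, and 63, 1015 and 298 for the changes between days. Under the block, clock genes called were 1 at day 3 and 1 for each of the later changes, and other clock genes 1 at day 3. At day 7 the calls of Per1, Per2 and Nr1d1 were lost (adjusted p 0.0777, 0.343 and 0.0862) and Arntl was called (0.0488), and at day 3 that of Clock was lost (0.236). Of the changes between days, those of Arntl (0.167) and Per3 (0.0625) from day 3 to day 7 and of Clock (0.477) and Per3 (0.202) from day 7 to day 11 were lost. Within a day the block leaves the control course no residual and was not run; a block across days, added after seeing the data, changed no clock gene's call.

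Without 1 library, genes called in knockdown were 111 to 562 at day 0, and clock genes 0 at day 0 in each fit, 1 to 2 at day 3, 4 to 8 at day 11 and 2 to 5 for the change from day 3 to day 7. Other clock genes ranged from 0 to 1 at day 0 and from 2 to 5 at day 3. Between hairpins, genes called were 1633 to 2592 at day 3, 1003 to 2385 at day 7 and 1479 to 2928 at day 11, and clock genes 3 to 6 at day 0, 3 to 6 at day 7 and 1 to 3 at day 11. Zbtb9 had at most 22.3 normalised reads in any library. The cause of its low level, and the effect of depth on the clock gene calls, were not tested.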
